A study of Mus musculus with 4 samples.

Results

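Neuron and neuroblast genes were followed across 4 cultures of p53-/- mouse neural stem cells. The set was fixed by name: 36 genes that mark newborn or maturing neurons, of which 35 were found by gene name on the array, out of 22177 genes with a probe. The 36th, Map2, is on the array under its older name Mtap2 and is described apart from the counts of members. Where a gene had several probes, the brightest over the 4 arrays was used.

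The study asked which genes follow Ceacam1, an adhesion receptor of the immunoglobulin superfamily, by adding its long form to one kind of cell and silencing it in another. All 4 groups were p53-/- neural stem cells labelled as brain of the E14.5 embryo and grown in serum-free medium: NSC; NSC-Ceacam1L, made to express Ceacam1L; NSCL61, a cell line of this origin; and NSCL61-Ceacam1sh, NSCL61 cells expressing Ceacam1shRNA, a short hairpin RNA. Vectors were transfected and cells were kept in hygromycin for 1 week, and the labels do not say whether NSC and NSCL61 carried an empty vector or whether the transformants were pools or clones. No probe had the gene name Ceacam1, so its gain and its silencing could not be checked on these arrays. Each group had 1 array, so no difference has a replicate check and none has a p-value. An error after ± is the scanner software's modelled error of the spots, which is technical only. All arrays lay on 1 slide, where position and group cannot be told apart.

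A neuron is born in steps. Proneural transcription factors such as the Neurog and Neurod proteins start the programme in a progenitor, Sox4 and Sox11 open neuronal genes, and the migrating neuroblast then builds a specialised cytoskeleton with doublecortin and class III beta-tubulin. Growth cones, neurofilaments, adhesion molecules that guide axons and the synaptic release machinery follow, while the repressor REST keeps many of these genes silent in other cells. Cultured neural stem cells are progenitors, yet they transcribe some early neuronal genes and can give rise to neurons.

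The promoters of Stmn3, Elavl3, Tubb3 and Chl1 are shown for orientation, as each of these genes had a much lower signal on the NSCL61-Ceacam1sh array than on NSCL61. RefSeq promoters (GRCm38.p6) matched 25 of the 35 genes, and the windows hold the 250 bases before the annotated start. They lie at chr2:181314501-181314750 (minus strand) for Stmn3, chr9:22052024-22052273 (minus strand) for Elavl3, chr8:123411303-123411552 (plus strand) for Tubb3 and chr6:103510626-103510875 (plus strand) for Chl1. Capitals mark, on either strand, the letters CAGCACC and GGACAG, which occur in the 2 parts of the REST recognition element, the GC box GGGCGG and the E-box CAGCTG that proneural factors can bind.
Stmn3: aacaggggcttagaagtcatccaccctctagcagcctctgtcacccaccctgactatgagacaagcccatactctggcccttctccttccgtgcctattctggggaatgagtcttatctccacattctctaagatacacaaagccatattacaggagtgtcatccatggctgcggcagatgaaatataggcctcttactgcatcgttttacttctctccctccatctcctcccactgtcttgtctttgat
Elavl3: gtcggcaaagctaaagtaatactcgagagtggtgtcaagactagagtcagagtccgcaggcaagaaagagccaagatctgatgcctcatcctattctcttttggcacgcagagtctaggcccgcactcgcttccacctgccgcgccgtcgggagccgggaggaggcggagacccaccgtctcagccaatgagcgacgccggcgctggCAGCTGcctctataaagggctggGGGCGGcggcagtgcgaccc
Tubb3: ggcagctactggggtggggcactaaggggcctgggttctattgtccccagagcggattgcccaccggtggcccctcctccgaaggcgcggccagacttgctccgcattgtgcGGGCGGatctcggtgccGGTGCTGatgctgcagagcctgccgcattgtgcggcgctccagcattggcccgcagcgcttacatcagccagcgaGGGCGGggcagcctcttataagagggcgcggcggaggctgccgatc
Chl1: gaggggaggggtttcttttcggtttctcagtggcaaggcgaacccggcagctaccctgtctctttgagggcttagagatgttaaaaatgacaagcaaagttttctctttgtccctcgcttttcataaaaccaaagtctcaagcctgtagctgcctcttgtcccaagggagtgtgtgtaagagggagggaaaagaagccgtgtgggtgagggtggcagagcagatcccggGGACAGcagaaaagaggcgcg
The Elavl3 window held 1 GC box and 1 E-box, the Tubb3 window held 2 GC boxes and 1 CAGCACC, the Chl1 window held 1 GGACAG, and the Stmn3 window held none of the 4. Over the 25 genes, the GC box was found in 15 (60%), against 32.7% of all 32851 promoter windows. CAGCTG was found in 6 (24%, against 13.0% of all), GGACAG in 6 (24%, against 18.7%) and CAGCACC in 2 (8%, against 5.73%). Another E-box, CAGATG, was searched but is not marked. It was found in 4 (16%, against 14.4%), among them Stmn3. None of these matches says that a factor binds there. The median GC content was 53.6% in the 25 genes and 52.4% in all windows.

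A level is the log2 of a probe's background-subtracted signal over the 75th percentile of its array, so that 0 is a fairly bright probe and values near -5 are close to background. Levels are compared between arrays for one probe, never between genes, and 4 levels in a row follow the order NSC, NSC-Ceacam1L, NSCL61, NSCL61-Ceacam1sh. A gene counts as seen where its probe was well above background by the scanner's own test. The NSC array showed 23 of the 35 genes, the NSC-Ceacam1L array 23, the NSCL61 array 27 and the array of NSCL61-Ceacam1sh, called the hairpin array from here on, 16. In the same order these are 65.7%, 65.7%, 77.1% and 45.7%, where 63.3%, 67.2%, 65.3% and 62.8% of all genes were seen. Each of Stmn2, Neurod6, Neurog2, Tbr1, Dlx5, Dlx6 and Cntn2, among them late markers of excitatory and inhibitory forebrain neurons, was not well above background on any array. Of the 28 genes seen at all, 15 had their highest level on NSCL61 and 20 their lowest on NSCL61-Ceacam1sh, and 12 seen elsewhere were not seen on NSCL61-Ceacam1sh. The counts of highest and lowest levels and the count of 12 were not made over all genes. They therefore do not show whether the members differ from other genes.

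**Figure D1:**
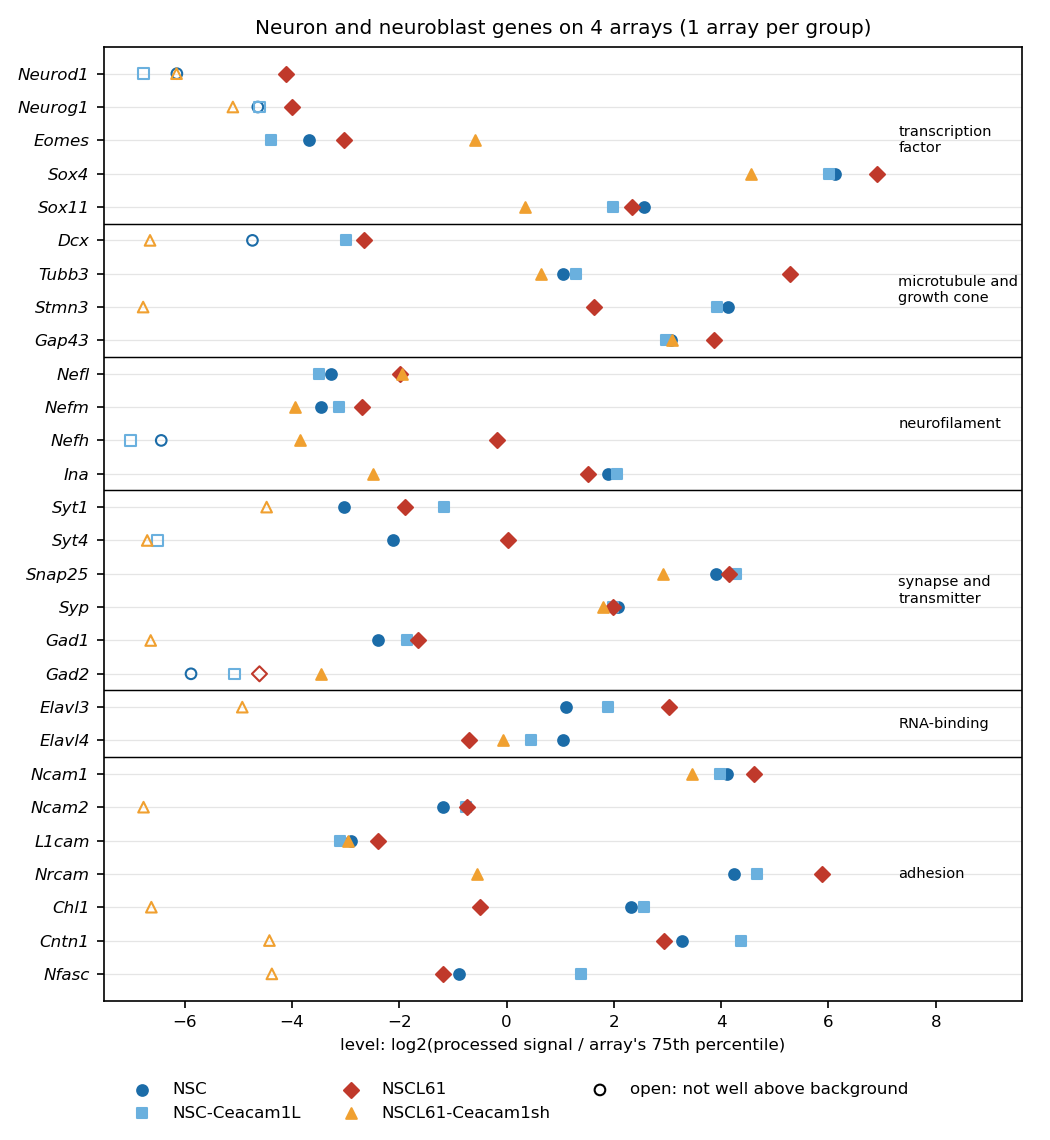
Level (log2, horizontal axis) of the 28 members seen on at least 1 array, by array and grouped by role; each symbol is 1 array and open symbols were not well above background. The NSCL61-Ceacam1sh symbol is the lowest of its row for 20 genes, a count that was not made over all genes. Levels should be read along a row, not between rows.

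The labelled cell type was checked with marker lists, each described by its counts of genes and by its summed signal (in units of the array's 75th percentile), which its brightest probes dominate. Of 8 markers of neural stem cells or radial glia, 8, 8, 7 and 7 were seen on NSC, NSC-Ceacam1L, NSCL61 and NSCL61-Ceacam1sh, with summed signals of 738, 531, 514 and 36.9. Among the neuron markers, Slc17a7, the vesicular glutamate transporter, was seen on no array, and Rbfox3, the NeuN antigen, on the NSC and NSC-Ceacam1L arrays. Snap25, Syn1, Tubb3 and Map2 were seen on every array, and Syt1 and Gad1 on all but NSCL61-Ceacam1sh. Of 8 neuron markers, which include members and Map2, 7, 7, 6 and 4 were seen, with sums of 30.4, 33.5, 64.3 and 10.4. Gene by gene, 5 of the 6 evaluated between the NSCL61 arrays were lower on the hairpin array, 2 of them not seen there. NSCL61 against NSC had 2 higher and 2 lower of 7, so the larger sum on NSCL61 does not stand for the list. Of 6 neuroblast markers, 3, 5, 5 and 4 were seen, with sums of 8.24, 6.02, 6.35 and 2.93. Their median hairpin difference was 0.19, with Dcx and Sox11 lower and Dlx1 (0.19), Dlx2 (0.45) and Elavl4 (0.62) within 2-fold, and NSCL61 against NSC had 3 higher and 1 lower of 5 (median 1.29), although its sum was the smaller.

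Markers of other cell types differed between the arrays too. On the hairpin array against NSCL61, 6 of 8 stem cell or radial glia markers (median -3.94), 6 of 6 astrocyte markers (-6.48) and 5 of 6 oligodendrocyte lineage markers (-4.09) were lower, as most members were. In the same order, 1, 3 and 3 of these lower markers were not seen on the hairpin array. Those were evaluated only through NSCL61, where they are higher. In the opposite direction, 5 of 6 fibroblast or mesenchymal markers evaluated were higher on the hairpin array (median 5.19), 2 of them not seen on NSCL61. Their summed signals were 2.33, 13.6, 0.388 and 21.7 on the 4 arrays. The oligodendrocyte sums were 198, 191, 122 and 2.43. Astrocyte markers differed in all 3 comparisons, with sums of 51.7, 115, 287 and 2.52: 5 of 6 were higher on NSC-Ceacam1L than on NSC (median 2.44), and 5 of 6 were higher on NSCL61 than on NSC (median 2.40), with Gfap, the astrocyte filament protein, at 7.33 and 10.98. Endothelial (8.60 to 13.9), microglial (2.53 to 3.92) and neural crest or Schwann markers (0.247 to 2.56) had sums in these ranges. Among all genes evaluated, 24.2% were lower and 23.4% higher in the hairpin comparison. On NSC-Ceacam1L and on NSCL61 against NSC, 10.5% and 14.4% of all genes evaluated were higher. The part of these marker lists in the results was not tested. In bulk RNA, fewer cells of a type and less RNA per cell cannot be told apart.

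Against NSCL61, the hairpin array had lower signals for most neuron and neuroblast genes. Of the 28 genes evaluated (seen on at least 1 of the pair), 21 (75%) were lower and 2 were higher by 2-fold or more, with a median log2 difference of -2.46, or -2.22 with genes seen on 1 array set at their bound. Of the 21 lower genes, 12 were seen on NSCL61 alone, so they were evaluated only through the array where they are higher. Over all genes, this held for 1414 of the 3758 lower ones. The members' median was -1.46 with normexp background correction, with 18 lower and 1 higher, and -1.23 over the 15 genes seen on both arrays, of which 9 were lower and 1 was higher. Among all 15514 genes evaluated, 24.2% were lower and 23.4% were higher (47.6% either way), with a median of 0.01. These shares were 17.9% lower and 18.1% higher with normexp, and 18.2% lower and 20.9% higher over all genes seen on both arrays. Scaling to the median or to spike-in probes moved the median of all genes to 0.43 and 0.47 and the share of higher genes among all calls from 49.2% to 64.5% and 65.7%, and the members were then 3 higher and 17 lower. Of all genes evaluated, 33.4% and 34.5% were then higher, and 18.4% and 18.0% lower.

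Microtubule and growth cone genes included the canonical neuroblast markers. Tubb3, class III beta-tubulin, was at 1.05 on NSC, 1.30 on NSC-Ceacam1L, 5.29 on NSCL61 and, lowest of all, 0.64 on NSCL61-Ceacam1sh. NSCL61 was alone in its high level, 25.1-fold (-4.65 ± 0.20 for the hairpin array against it) above its hairpin counterpart. Stmn3, a stathmin that destabilises microtubules, was at 4.13, 3.92 and 1.64 on the same first 3 arrays and at -6.77, not well above background, on NSCL61-Ceacam1sh. Its signal was at least 83.7-fold lower there than on NSCL61, the bound being set by the dimmest signals the array could tell from background.

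Dcx, doublecortin, stabilises microtubules in migrating neuroblasts. It was dim throughout, at -4.74 (not well above background), -3.001, -2.65 and -6.65 (not well above background) on NSC, NSC-Ceacam1L, NSCL61 and NSCL61-Ceacam1sh. It was at least 4.29-fold lower on the hairpin array than on NSCL61. The remaining pair of Dcx probes was well above background on no array. Gap43, a growth cone protein, was at 3.06, 2.97, 3.87 and 3.08, and its hairpin difference of -0.80 ± 0.20 stayed within 2-fold, though it reached -1.01 under quantile normalization. Stmn2, the other stathmin, was not seen. Map2, which binds microtubules in dendrites, was at 3.102, 2.73, 2.35 and -1.91 under its older name, a difference of -4.26 ± 0.21 between the NSCL61 arrays.

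Neurofilament genes split. Ina, alpha-internexin, the neurofilament subunit of early axons, was at 1.90, 2.05, 1.52 and -2.49 on NSC, NSC-Ceacam1L, NSCL61 and NSCL61-Ceacam1sh. The first 3 arrays were close and the hairpin array was 16.2-fold lower than NSCL61 (-4.01 ± 0.22), with -3.93 by its second probe. Nefh, the heavy subunit, was at -0.17 on NSCL61 and -3.86 on NSCL61-Ceacam1sh and was not well above background on NSC (-6.44) and NSC-Ceacam1L (-7.01), which gave a hairpin difference of -3.69 ± 0.28. Nefl, the light subunit, was at -3.27, -3.50, -1.98 and -1.95, a hairpin difference of 0.04 ± 0.22. The medium subunit Nefm was at -3.46, -3.12, -2.70 and -3.95, and its hairpin difference of -1.24 ± 0.31 became -0.65 with normexp background correction and -0.78 to -0.87 under median, quantile and spike-in scaling.

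Synaptic genes ranged from nearly level to not seen on the hairpin array. Syp, synaptophysin, an abundant vesicle membrane protein, was nearly level at 2.07, 1.98, 1.98 and 1.79. Snap25, a SNARE protein of vesicle fusion, was at 3.89, 4.28, 4.14 and 2.91, and its hairpin difference of -1.23 ± 0.20 was -0.81 under median and -0.77 under spike-in scaling. The calcium sensor of fast release, Syt1, was at -3.03, -1.17, -1.89 and -4.47, the last not well above background, and was at least 5.97-fold lower on the hairpin array than on NSCL61. Syt4, a synaptotagmin of dense-core vesicles, was seen on NSC (-2.13) and NSCL61 (0.02) and on neither modified culture (-6.51 on NSC-Ceacam1L, -6.70 on NSCL61-Ceacam1sh). It was at least 27.2-fold lower on the hairpin array than on NSCL61.

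The 2 enzymes that make GABA went separate ways. Gad1 was at -2.40, -1.86, -1.65 and -6.63 on NSC, NSC-Ceacam1L, NSCL61 and NSCL61-Ceacam1sh, the last not well above background, and was at least 8.57-fold lower there than on NSCL61. Gad2 was seen on the hairpin array alone, at -3.46 against -5.88, -5.07 and -4.61. Its difference from NSCL61 was at least 2.21-fold (1.15 ± 0.42) and shrank to 0.25 with normexp background correction, so that this call rests on a dim probe.

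Adhesion molecules of the immunoglobulin superfamily guide axons and bind neurons to each other and to glia. Of the 7 seen, 6 were lower on the hairpin array, with a median of -6.03 (-4.01 with bounds), where 24.2% of all genes evaluated were lower. Of these 6, 4 were not seen on the hairpin array, so they were evaluated only through NSCL61, where they are higher. Nrcam, a node of Ranvier and axon guidance protein, was at 4.23, 4.67, 5.87 and -0.56 on NSC, NSC-Ceacam1L, NSCL61 and NSCL61-Ceacam1sh. It was seen on every array, and the hairpin array was 86.2-fold lower than NSCL61 (-6.43 ± 0.20). Cntn1, a GPI-anchored contactin, was at 3.28, 4.37, 2.93 and -4.42, the last not well above background, and was at least 164-fold lower than on NSCL61.

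Chl1, the close homologue of L1, was at 2.33, 2.56, -0.49 and -6.62, so that NSCL61 lay between the NSC arrays and the hairpin array, where it was not well above background and at least 19.2-fold lower. Nfasc, neurofascin, was at -0.88, 1.38, -1.19 and -4.38, and was at least 9.08-fold lower on the hairpin array than on NSCL61. L1cam, the founding member of the L1 family, was at -2.91, -3.10, -2.40 and -2.96, and its hairpin difference of -0.57 ± 0.25 was within 2-fold. Of these L1 family genes, Nrcam, Chl1 and Nfasc were thus lower by more than 2-fold and L1cam was not. Cntn2, the other contactin, was not seen.

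Ncam1 and Ncam2, neural cell adhesion molecules made in several spliced forms, each had 3 probes, and their probes gave different sizes. The first 30 bases of each 60-base probe are shown, with those of Nefh, as the probe decides the value for these genes.
Ncam1 A_51_P380309: actttttactgagtgaaacatcaacaccac
Ncam1 A_55_P2028942: tggaaggcattgtcaccatcatgggcctga
Ncam1 A_55_P2050602: ctgtgtattagtacagtccgtacaccatgt
Ncam2 A_52_P610188: acactatgaccaaaactattccattgacct
Ncam2 A_52_P209119: ttgcagatcctcaatatcaataaaagtgat
Ncam2 A_52_P184368: tatctgtatggatatgtgtcaagtcaggct
Nefh A_55_P2099790: agcaaacccaagacagaaaaggctgaaaaa
Nefh A_55_P2053181: tccactgaagtccactttcaattgcttcca
On mm9, in the order listed, the Ncam1 probes lie at chr9:49310320-49310379, chr9:49351182-49351241 and chr9:49323381-49323440 (minus strand). Those of Ncam2 lie at chr16:81623752-81623811, chr16:81443408-81443467 and chr16:81597911-81597970 (plus strand), and those of Nefh at chr11:4839396-4839455 and chr11:4838758-4838817 (minus strand).

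The brightest Ncam1 probe, A_51_P380309, was at 4.11, 3.98, 4.62 and 3.46 on NSC, NSC-Ceacam1L, NSCL61 and NSCL61-Ceacam1sh, a hairpin difference of -1.16 ± 0.20. It lists 2 RefSeq transcripts. Probe A_55_P2050602, which lists 1 transcript that the brightest probe does not, was at 2.54, 3.27, 2.87 and -1.13, a hairpin difference of -3.998 ± 0.21. Probe A_55_P2028942, which lists all 3 of these transcripts, was between them at -2.08 ± 0.20. All 3 probes were thus lower on the hairpin array, by amounts that differed by 2.84 on the log2 scale, many times their spot errors. The call by the brightest probe was -0.74 under median and -0.70 under spike-in scaling.

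For Ncam2, probe A_52_P610188 was at -1.18, -0.76, -0.74 and -6.77 on the 4 arrays, the last not well above background, and at least 16.1-fold lower on the hairpin array than on NSCL61. A_52_P209119, which lists the same transcript and a second one, was at -1.56, -1.66, -0.96 and -6.59. A_52_P184368, which lists the second transcript alone, was seen on NSCL61 at -2.63 and on no other array (-6.42, -5.92 and -6.77). The Nefh probe A_55_P2053181 was seen on NSC-Ceacam1L alone, at -3.86, where the brighter Nefh probe was not, although both list the same RefSeq transcript.

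**Figure D2:**
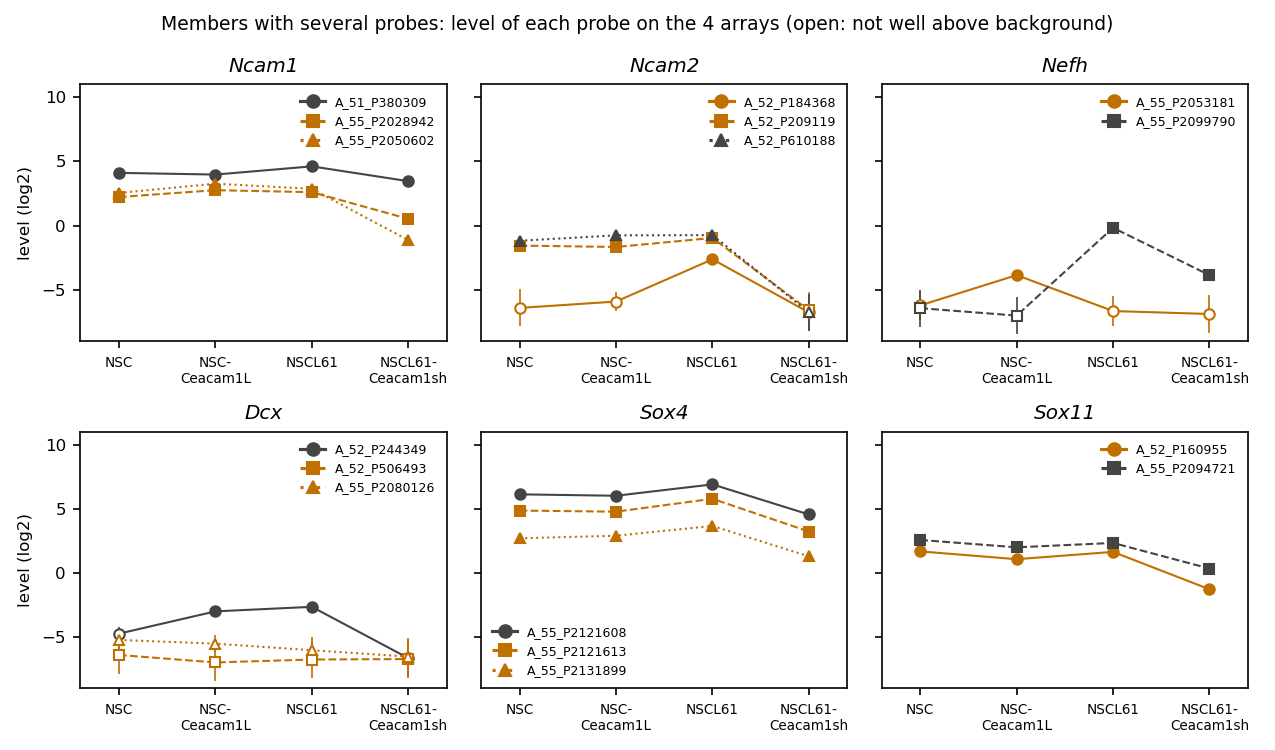
Level (log2, vertical axis) of each probe of 6 members on the 4 arrays, with the modelled spot error as bars; grey marks the brightest probe used for the gene and open symbols were not well above background. Each Ncam1 probe is at its lowest on NSCL61-Ceacam1sh (3.46, 0.53 and -1.13), and the Nefh probes are seen on different arrays.

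RNA-binding proteins of the Elav (Hu) family stabilise neuronal transcripts, and these 2 genes differed from each other. Elavl3 was at 1.12, 1.90, 3.03 and -4.93 on NSC, NSC-Ceacam1L, NSCL61 and NSCL61-Ceacam1sh, the last not well above background. Its signal was at least 219.7-fold lower on the hairpin array than on NSCL61. Elavl4 was at 1.05, 0.46, -0.69 and -0.07, and its hairpin difference of 0.62 ± 0.21 stayed within 2-fold, but was 1.04 under median and 1.08 under spike-in scaling.

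Transcription factors were the group least often seen, with 5 of 10 on any array. Sox4 and Sox11, which activate neuronal genes in newborn neurons, were seen on every array. Sox4 was at 6.12, 6.01, 6.90 and 4.55 on NSC, NSC-Ceacam1L, NSCL61 and NSCL61-Ceacam1sh, a hairpin difference of -2.35 ± 0.20, with -2.55 at the far end of its 3 probes. Sox11 was at 2.56, 1.99, 2.33 and 0.33, a hairpin difference of -1.998 ± 0.20, and of -2.91 by its second probe. Both were lowest on the hairpin array.

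Eomes, the T-box factor of intermediate progenitors also called Tbr2, went the other way: it was at -3.68, -4.39, -3.03 and -0.59, and was 5.44-fold higher on the hairpin array than on NSCL61 (2.44 ± 0.23). Its second probe was seen on that array alone and differed by 2.74 ± 1.47. The proneural genes Neurod1 and Neurog1 were seen on NSCL61 alone and only just. Neurod1 was at -6.15, -6.77, -4.11 and -6.15, and was at least 1.56-fold lower on the hairpin array (-2.04 ± 1.12 by measured signals). Neurog1 was at -4.64, -4.60, -4.003 and -5.10, at least 1.68-fold lower there, and its difference was within 2-fold with normexp (-0.45) and under median, quantile and spike-in scaling (-0.64 to -0.68).

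**Figure D3:**
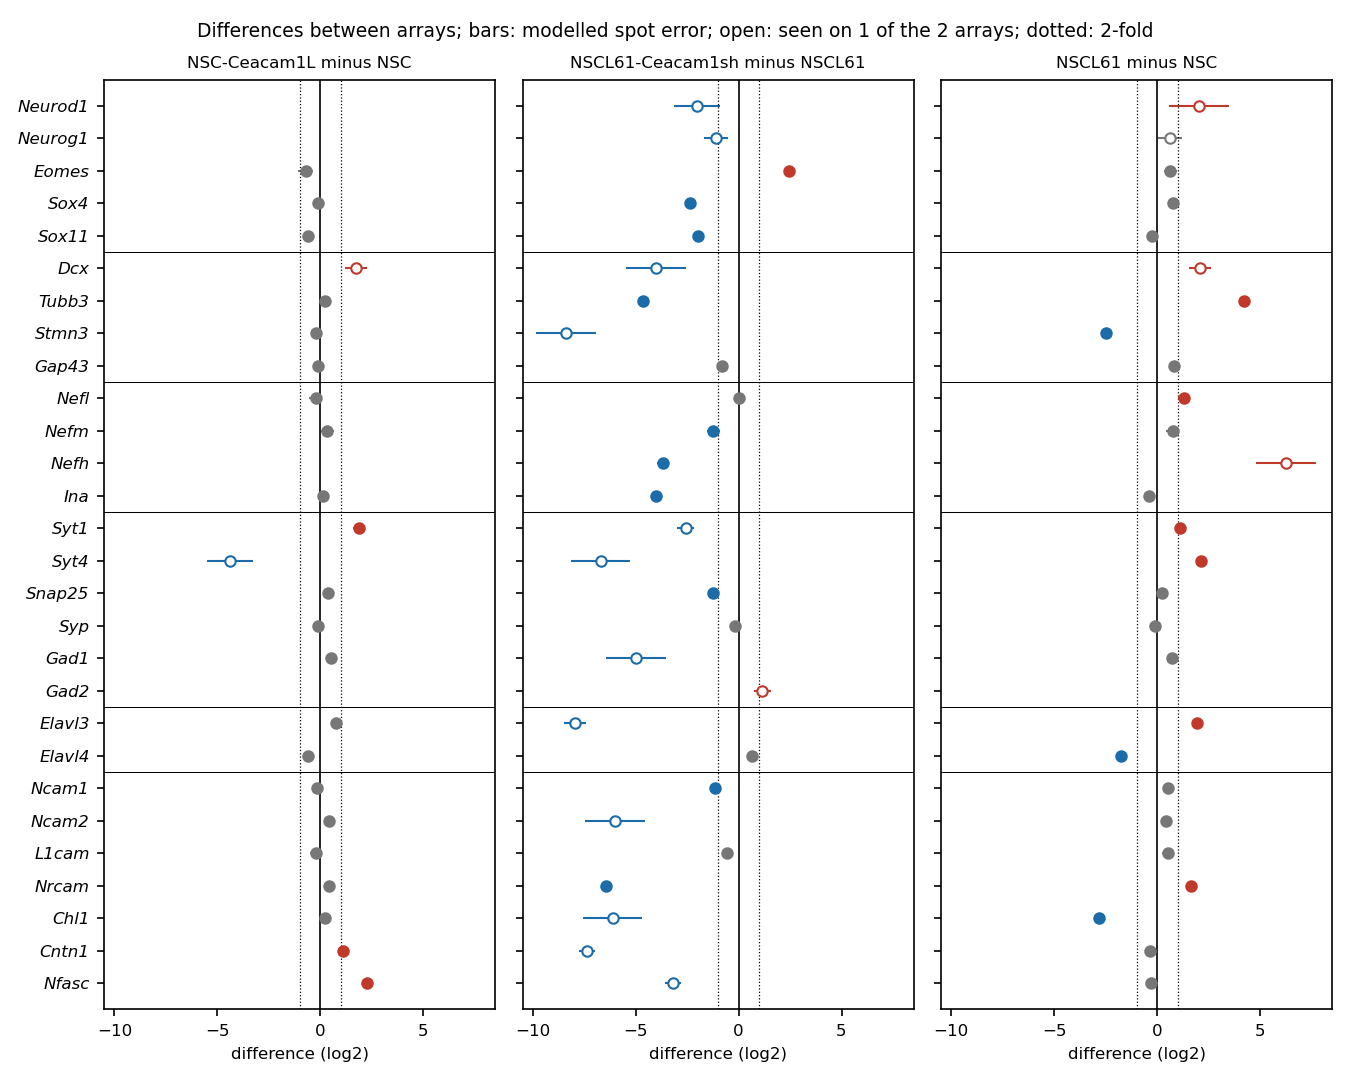
Log2 difference between arrays (horizontal axis) for the members in each comparison, with the modelled spot error as bars; red and blue mark genes higher and lower by 2-fold (dotted lines) or more, grey those within it, and open symbols were seen on 1 of the 2 arrays. In the middle panel, 21 of 28 genes lie beyond the lower line, from -1.10 for Neurog1 to -8.41 for Stmn3.

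Between NSC-Ceacam1L and NSC most members stayed within 2-fold. On the NSC-Ceacam1L array, 4 of 24 genes evaluated were higher by 2-fold or more, where 10.5% of all 15224 genes evaluated were, and 1 was lower, where 6.04% were (16.5% either way). The members' median was 0.19 and that of all genes was -0.10. Spike-in scaling moved the latter to 0.31 and the share of higher genes among all calls from 63.4% to 85.6%, with 5 members higher and 1 lower. Of all genes evaluated, 17.1% were then higher and 2.88% lower. The astrocyte markers given above were higher on the same array.

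Nfasc was 4.82-fold higher on NSC-Ceacam1L (2.27 ± 0.21), Syt1 was 3.63-fold higher (1.86 ± 0.26) and Cntn1 was 2.13-fold higher (1.09 ± 0.20), each seen on both arrays. Dcx was at least 2.41-fold higher by its brightest probe, but the difference was 0.42 with normexp background correction and 0.29 with its 3 probes averaged. Syt4 was at least 6.62-fold lower. The other 19 genes stayed within 2-fold, among them Tubb3 (0.24 ± 0.20), Stmn3 (-0.21 ± 0.20), Elavl3 (0.78 ± 0.21), Sox11 (-0.57 ± 0.20) and Ncam1, whose 3 probes gave -0.13, 0.53 and 0.72.

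The line NSCL61 had more members above than below NSC. Of 27 genes evaluated, 9 were higher by 2-fold or more, where 14.4% of all 15209 genes evaluated were, and 3 were lower, where 14.0% were (28.3% either way). The median was 0.65, or 0.51 with bounds, and that of all genes was 0.03. Spike-in scaling moved the latter to -0.19 and the share of higher genes among all calls from 50.7% to 40.1%, with 8 members higher and 3 lower. Of all genes evaluated, 11.6% were then higher and 17.4% lower. Astrocyte markers were higher on NSCL61 here as well. This comparison shares the NSCL61 array with the hairpin comparison and the NSC array with the Ceacam1L comparison, so an unusual signal on either array enters both.

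Tubb3 was 18.8-fold higher on NSCL61 than on NSC (4.23 ± 0.20), and Nefh was at least 17.1-fold higher. Syt4 was 4.42-fold higher (2.14 ± 0.22), Elavl3 was 3.77-fold higher (1.91 ± 0.21) and Nrcam was 3.11-fold higher (1.64 ± 0.20). Nefl (1.29 ± 0.28), Syt1 (1.13 ± 0.27), Dcx (at least 3.07-fold) and Neurod1 (at least 1.12-fold, 2.04 ± 1.48 by measured signals) completed the 9. With normexp background correction, the differences of Nefl, Syt1, Dcx and Neurod1 were 0.66, 0.61, 0.72 and 0.27, and that of Syt1 was 0.91 under spike-in scaling. These 4 genes are dim, and their place among the higher genes rests on the handling of background.

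Chl1 was 7.05-fold lower on NSCL61 than on NSC (-2.82 ± 0.21, and -2.77 by its second probe), Stmn3 was 5.62-fold lower (-2.49 ± 0.20) and Elavl4 was 3.36-fold lower (-1.75 ± 0.21, and -3.54 by its second probe). The members did not all differ one way between these cultures. Tubb3 and Stmn3, of the same role group, differed in opposite directions, as did Elavl3 and Elavl4, and Nrcam and Chl1.

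Genes of the same roles that are not members were read from 6 further lists of 128 genes. In the hairpin comparison, 10 of 20 neuronal transcription factors evaluated were lower and 2 were higher (median -0.92, or -0.46 with bounds). Over the 12 of them seen on both arrays, 3 were lower and 2 higher and the median was above 0, at 0.17, so that the list's direction rests on genes not seen on 1 array. Among the lower genes, Pou3f2, a neuronal POU factor, was at -5.28 ± 0.31. Ebf1 (1.36 ± 0.25) and Ebf3 (1.03 ± 0.20), helix-loop-helix factors of early neurons and other lineages, were higher, Ebf1 at 0.61 with normexp and Ebf3 at 0.90 under quantile normalization.

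Of 22 microtubule and growth cone genes, 14 were lower and 3 higher on the hairpin array (median -2.01). Kif1a, the motor of synaptic vesicle precursors, was at least 654-fold lower, Mapt, which encodes tau, was at -7.98 ± 0.22 and Stmn4 at -7.70 ± 0.22. Map1b (2.05 ± 0.21), an early axonal microtubule protein, the kinesin Kif5c (1.20 ± 0.20) and the tubulin Tubb4a (1.17 ± 0.20, but 0.95 under quantile normalization) were higher. Of 22 synaptic genes, 15 were lower and 1 was higher (median -1.39, or -1.24 with bounds). The granin Scg3 (-9.02 ± 0.32) and the secreted peptide precursor Vgf (-8.11 ± 0.21) were among the lower genes, and Syt13 was higher (6.10 ± 0.22).

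Of 19 further adhesion genes, 12 were lower and 3 higher on the hairpin array (median -1.63). The presynaptic neurexin Nrxn2 (-7.33 ± 0.22) and the cell adhesion molecule Cadm4 (-7.72 ± 0.22) were among the lower genes. Alcam (3.17 ± 0.21), Ank3, the ankyrin of the axon initial segment (at least 6.62-fold), and Cadm1 (1.11 ± 0.20, but 0.93 under quantile normalization) were higher. Of 12 neuronal RNA-binding protein genes, 5 were lower and 1 was higher (median -0.73): Elavl2 was at least 18.7-fold lower, Celf3 at least 9.66-fold lower and Celf2 was at -2.76 ± 0.20, while Celf4 was higher (2.21 ± 0.20). These counts stand beside the 24.2% lower and 23.4% higher among all genes. Under median, quantile and spike-in scaling, the medians of these 5 lists were below 0, the nearest being -0.27 for RNA-binding proteins under spike-in scaling, where 3 were higher and 4 lower.

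The REST list, which holds the repressor, its partners and regulators, was evaluated in full (14 genes) and had a median of 0.09 in the hairpin comparison, with 3 genes higher and 2 lower. The corepressor Rcor1 (1.32 ± 0.20), the deacetylase Hdac1 (1.24 ± 0.20) and the splicing repressor Ptbp1 (1.45 ± 0.20) were higher. Rcor2 (-2.20 ± 0.20) and the phosphatase Ctdsp2 (-1.04 ± 0.20) were lower. Rest itself was at 1.49, 1.32, 1.79 and 2.69 on NSC, NSC-Ceacam1L, NSCL61 and the hairpin array, a difference of 0.90 ± 0.20 there, which passed 2-fold under median (1.32) and spike-in scaling (1.36), as did that of Ehmt1, a histone methyltransferase (1.29 and 1.32). This list has no settled direction: its median was 0.51 with median and 0.54 with spike-in scaling, each with 5 higher and 1 lower, and -0.04 under quantile normalization, with 2 higher and 2 lower. Hdac1 (0.88 under quantile normalization) and Ctdsp2 (-0.62 under median scaling) lost their calls.

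On NSC-Ceacam1L against NSC, 10.5% of all genes evaluated were higher by 2-fold or more and 6.04% were lower. Of the same lists, 3 of 20 transcription factors (15%), 4 of 21 microtubule genes (19.0%), 5 of 22 synaptic genes (22.7%), 6 of 22 adhesion genes (27.3%) and 2 of 13 RNA-binding genes (15.4%) were higher, and 1 microtubule gene and 1 of 14 REST list genes were lower. Dlx2 (1.34 ± 0.22), Myt1l (at least 2.09-fold) and Dlx1 (at least 1.502-fold) were the higher transcription factors. Kif5a (2.10 ± 0.21), Dpysl4 (1.64 ± 0.20) and Map1a (1.47 ± 0.20) led the higher cytoskeletal genes, and Stmn4 was lower (-1.64 ± 0.20). Of the synaptic list, the granins Scg2 (2.61 ± 0.20) and Chgb (1.44 ± 0.21) and Vgf (1.44 ± 0.21) were higher. Cadm3 (2.23 ± 0.31), Opcml (at least 4.02-fold) and Dscaml1 (1.46 ± 0.21) led the adhesion genes, Rbfox3 (1.23 ± 0.24) and Khdrbs2 (at least 1.82-fold) were the RNA-binding genes, and Rcor2 was lower (-1.004 ± 0.20). With normexp background correction, 0 of the 20 transcription factors and 0 of the 13 RNA-binding genes were past 2-fold and 2 of the 22 adhesion genes were, and the Myt1l difference changed sign with its probes averaged (-0.27). Rcor2 was within 2-fold under median, quantile and spike-in scaling (-0.59 to -0.93).

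On NSCL61 against NSC, where 14.4% of all genes evaluated were higher and 14.0% lower, 7 of 21 transcription factors (33.3%) were higher and 3 (14.3%) lower, with Foxp2 at least 5.54-fold higher, Prox1 at 1.79 ± 0.23 and Insm1 at 1.66 ± 0.20. Bcl11b (at least 7.88-fold), Ebf1 (-1.36 ± 0.26) and Mef2c (at least 2.26-fold) were lower. Of 22 microtubule genes, 7 (31.8%) were higher, led by Stmn4 (2.59 ± 0.20), Dclk1 (2.44 ± 0.20) and Kif5c (2.41 ± 0.21), and Dpysl4 was lower (-3.01 ± 0.20). Of 22 synaptic genes, Vgf (7.17 ± 0.21), Scg2 (2.68 ± 0.20) and Syngr3 (1.15 ± 0.22) were higher (13.6%) and 4 were lower (18.2%), shares near those of all genes, among them Chga (-2.64 ± 0.21) and the complexin Cplx1 (-2.44 ± 0.23).

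In the same comparison, 5 of 20 adhesion genes (25%) were higher, led by Cntnap2 (at least 3.54-fold), Cadm1 (1.68 ± 0.20) and Cadm4 (1.65 ± 0.20), and 4 (20%) were lower, led by Ntm (-2.23 ± 0.21), Dscam (-1.25 ± 0.20) and Cadm3 (-1.02 ± 0.46, not well above background on NSCL61, and 1.75 with its probes averaged). Among 12 RNA-binding genes, Celf5 was higher (1.29 ± 0.23), and Rbfox3 (at least 2.92-fold) and Celf2 (-1.34 ± 0.20) were lower (8.33% and 16.7%). Ctdsp2 was the 1 higher gene of the 14 on the REST list (1.12 ± 0.20, but 0.90 under spike-in scaling). With normexp, the differences of Ebf1 (-0.66), Mef2c (-0.36), Syngr3 (0.79), Cntnap2 (0.91), Celf5 (0.80) and Rbfox3 (-0.79) were within 2-fold, as were those of Foxp2 (0.61), Dclk1 (0.63) and Celf2 (-0.86) with probes averaged.

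**Figure D4:**
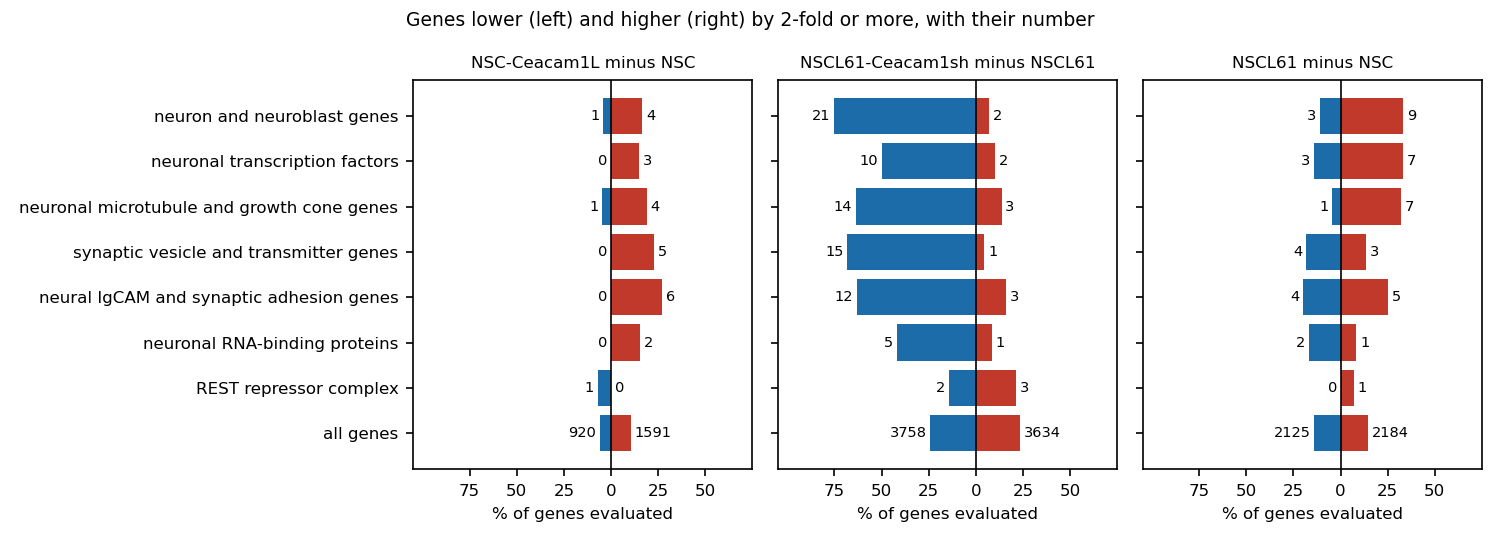
Share of the genes evaluated (horizontal axis, %) that were lower (left, blue) or higher (right, red) by 2-fold or more in each comparison, with the number of genes beside each bar, for the members, 6 further lists and all genes. In the NSCL61-Ceacam1sh panel the bar of the members reaches 75% lower, and the REST list has 3 higher and 2 lower.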

How the data were processed

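Total RNA of 4 cultures, 1 per group by sample title, was hybridised to single-colour Agilent mouse arrays (design 028005, mm9 coordinates). The intensity values (background-subtracted processed signals, 62976 spots per array) came from Feature Extraction 10.7.3.1, run by the authors per the file headers, while version 9.1 stands in the submitters' processing notes. The deposited table of processed log2 values was used as an alternative; its differences had slopes of 1.00 against the scanner signals, and its centring stayed unknown (column medians 0.25, -0.20, 0.00 and 0.03, with arrays in the order NSC and NSC-Ceacam1L, then NSCL61 and NSCL61-Ceacam1sh, as below).

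Outlier spots (187, 143, 144 and 147) were left out, no spot was saturated, and log2 signals were scaled to each array's 75th percentile (480.0, 571, 439 and 541). Control spots were dropped, spots of a probe were averaged, and names were taken from the NSCL61 file, since 58 were altered in that of NSC. Of 22177 genes, 19949 matched a RefSeq (GRCm38.p6) symbol and 2228 a synonym, and 24495 of 55681 probes had no gene. Genes well above background (on at least 50.0% of a probe's spots) numbered 14041, 14911, 14480 and 13917, and the median spot error was 0.15 on each array.

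A gene was counted at a measured log2 difference of 1 or more with the brighter array well above background. A gene seen on 1 array could thus be counted with a bound below 2-fold, as Neurod1 and Neurog1 were in the hairpin comparison. For genes seen on 1 array, "at least" sets the bright level against the higher of the dim level and the lowest signal well above background on the dim array; no bound was given where another probe of the gene was seen there. In medians with bounds such genes entered at the bound, or at 0. Members and lists were chosen with earlier results of these data known. All members are named, and from each further list up to 3 genes with the largest difference each way per comparison, by the bound where there is one; a few genes that this rule names are not reported here. The motifs shown are 4 of 20 searched. Exon and UTR positions were not used here. Normexp used limma 3.58.1 (offset 50) in R 4.3.3. The counting was tested on simulated data with changes well past the threshold, little noise and no gene seen on 1 array alone. That test checks the code and not how often a real call is wrong. The alternatives were normexp, median, quantile and spike-in scaling, the deposited table, filters, probe averaging and a 1.5-fold threshold; for the further lists these were chosen after seeing the data.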

Additional observations from a re-analysis of the deposited data

How the results depend on the processing

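No member's called difference changed sign under the alternatives run. Of 637 values of single members and of Map2, 610 kept their side of the 2-fold threshold, 22 dropped below it and 5 rose past it. Of the 610, 82 came from leaving out the filter on dim probes and 63 from keeping genes seen on both arrays. These filter settings leave a gene's difference as it is, so those values were all but fixed in advance. Another 82 came from the deposited table, whose differences had slopes of 1.00 against the scanner signals. Between the NSC arrays, the members' median was 0.60 with spike-in scaling, and the count of lower members was 3 without a filter on dim probes, 3 at 1.5-fold and 0 where only genes well above background on both arrays were kept. Of all genes, 6.60%, 16.8% and 4.53% were lower at these settings. Between the NSCL61 arrays, the median was -1.46 with normexp, -2.04 with median and -2.005 with spike-in scaling, -1.998 without a filter and -1.23 with genes seen on both arrays. There, 1 member was higher with normexp and 1 with genes seen on both arrays, which also left 9 lower of 15. That filter leaves out 13 members seen on 1 array, of which 12 had been counted as lower. Spike-in and median scaling left 3 higher in this comparison. Between NSCL61 and NSC, 5 members were higher with normexp and 15 at 1.5-fold, where 8.97% and 23.4% of all genes were. The members' median was 0.33 with normexp and 0.42 with spike-in scaling. The cause of these shifts was not tested. In the further lists, of 1010 values of counted genes 925 stayed past 2-fold in the same direction, 82 dropped below it, and 3 changed sign with probes averaged: Myt1l between the NSC arrays (-0.27), Lhx6 between the NSCL61 arrays (1.05) and Cadm3 between NSCL61 and NSC (1.75). The 925 likewise hold values from the filter settings, which leave a gene's difference as it is. Spike-in scaling rests on 6 probes. Signal over background limits Dcx, Neurod1, Neurog1 and Gad2, which are close to it. No paired analysis was possible because each group has 1 array, and for the same reason no array could be left out.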
